A study of Mus musculus with 12 samples.

Results

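The endoplasmic reticulum stress genes are 10 genes of the unfolded protein response, Atf4, Ddit3, Xbp1, Hspa5, Hsp90b1, Calr, Pdia4, Manf, Creld2 and Sdf2l1, taken by symbol from the 54429 entries of the count table. All 10 were found, and all 10 passed the filter on low counts, with 74 to 34680 reads per gene and library. The study sequenced total RNA from brain punches of C57BL/6 mice in 12 libraries, 3 in each of 4 groups. Isolated BLA libraries came from males labelled "Early social isolated" and were set against BLA libraries from males labelled "Group housed", while isolated VTA libraries came from females with the isolation label and were set against VTA libraries from group-housed females. The labels give no genetic change or drug, no age, and neither the start nor the length of the isolation, and they name the regions only as BLA and VTA (the usual abbreviations of basolateral amygdala and ventral tegmental area). Sex comes from the design text and changes together with region, so region and sex cannot be told apart. Whether the 3 libraries of each group are 3 different mice is not stated, and the p-values therefore cover only the spread from library to library, which may be technical. In punches of mixed tissue, fewer cells of a type and less RNA per cell cannot be told apart.

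The unfolded protein response is the reaction of a cell to unfolded protein in the endoplasmic reticulum (ER). Its sensors are IRE1, which splices the Xbp1 mRNA, PERK, which slows translation and raises the protein ATF4 and its target DDIT3 (CHOP), and ATF6, which is cleaved into a transcription factor. The targets include the chaperones and folding enzymes of the ER, such as BiP (the product of Hspa5), and neurons, which secrete and display large amounts of membrane protein, use them at rest as well as under stress. Gene counts measure neither the splicing of Xbp1 nor the translation of Atf4, which are the regulated steps of those branches.

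The libraries held 28277721 to 69270051 counted reads. The regions carried their markers. Levels are given as CPM, the reads of a gene scaled to a fixed library size. BLA libraries had at least 449 CPM of the glutamatergic marker Slc17a7 and at most 1.09 CPM of the dopamine transporter gene Slc6a3, which lay between 231 and 520.3 CPM in VTA libraries. Several libraries stand apart. Loci that collect ribosomal RNA reads took 18.6% of the total in library 3 of the isolated BLA group and 28.6% and 41.8% in libraries 1 and 2 of the group-housed BLA group, and no more than 1.57% elsewhere. Ttr, which marks the choroid plexus, reached 205 and 3106 CPM in isolated VTA libraries 1 and 3, against 2.70 CPM in isolated library 2 and 0.255 to 0.892 CPM in group-housed VTA libraries. Slc17a7 followed, at 23.8, 8.18 and 232 CPM in isolated VTA libraries 1, 2 and 3 and 2.88 to 5.196 CPM in group-housed VTA libraries.

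Levels of different genes were compared per kb of transcript, on a scale shared by all 12 libraries. Calr, a calcium-binding chaperone that works on glycoproteins, had the highest level, 166 ± 18.9 CPM per kb (SD, n = 12 libraries), and was above every other member in 12 of 12 libraries. Hsp90b1 (GRP94, the HSP90 chaperone of the ER) followed at 102 ± 8.65 CPM per kb and Hspa5, the HSP70 chaperone of the ER, at 93.1 ± 17.5 CPM per kb. These neighbours lie within their spread, since Hsp90b1 was above Hspa5 in 10 of 12 libraries. The transcription factors came next, with Atf4 at 56.3 ± 5.71 and Xbp1 at 41.0 ± 4.75 CPM per kb.

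Pdia4 (ERp72), a protein disulfide isomerase, had 28.2 ± 4.71 CPM per kb and Ddit3, a transcription factor linked to cell death under lasting stress, had 23.2 ± 1.61 CPM per kb. They also overlap, with Pdia4 above Ddit3 in 9 of 12 libraries. The small ER proteins were lowest. Manf, a protein of the ER lumen that is secreted under stress and supports dopamine neurons in rodents, had 15.6 ± 1.54 CPM per kb. Creld2, an ER protein induced by stress, had 10.9 ± 1.96 and Sdf2l1, a partner of BiP and its DNAJ co-chaperones, had 7.94 ± 2.11 CPM per kb, with Creld2 the higher in 11 of 12 libraries. Ddit3 varied least among the 12 libraries, with a highest level 1.24 times its lowest, and Sdf2l1 varied most, with a ratio of 2.65.

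**Figure D1:**
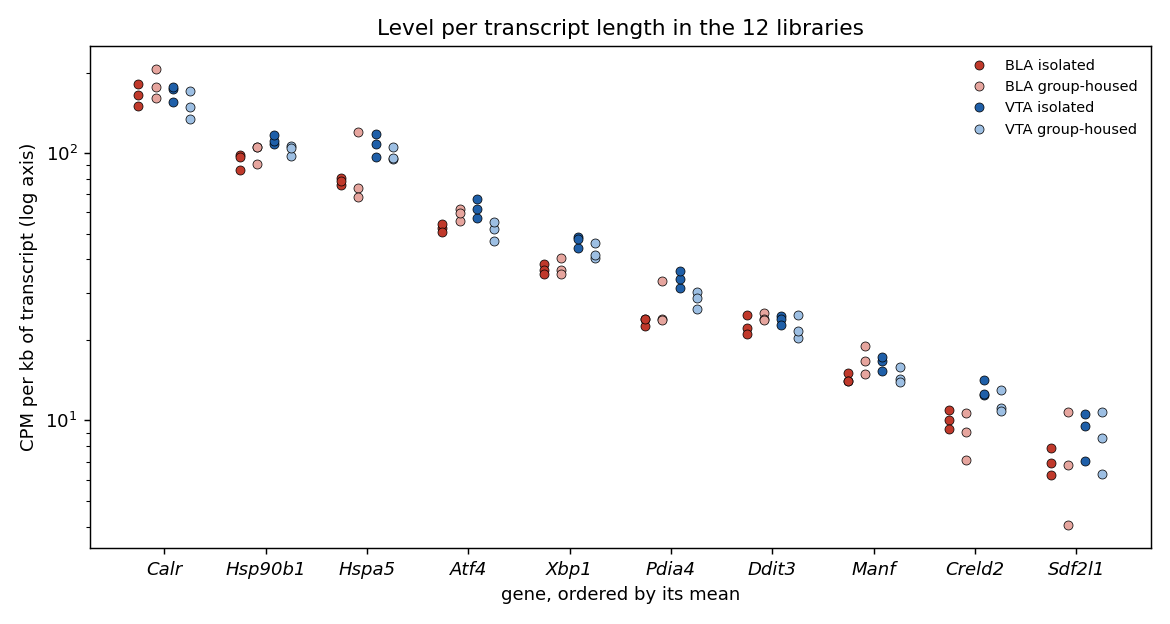
Level of each gene per transcript length in the 12 libraries, in CPM per kb on a log axis, with 1 point per library, coloured by group. Calr lies above all others in every library, and the order from Calr (166 CPM per kb on average) to Sdf2l1 (7.94) is interrupted by the overlapping pairs Hsp90b1 and Hspa5, and Pdia4 and Ddit3.

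Of the 10 members, 9 had an entry in the RefSeq promoter table for GRCm38.p6 (250 bases before to 50 after the gene start). Manf had none. The ER stress element, CCAAT and CCACG with any 9 bases between them, is the site at which ATF6 and the factor NF-Y are known to act, and it was searched on both strands. It was present in 39 of 32851 promoters (0.119%) and in 4 of the 9 member promoters, those of Hspa5, Hsp90b1, Calr and Creld2. The 4 stretches are shown because the windows of the other 5 members, Atf4, Ddit3, Xbp1, Pdia4 and Sdf2l1, lack the element. They run 5′ to 3′ on the strand of the gene, with both ends of each element in capitals (CCAAT and CCACG, or CGTGG and ATTGG where the element lies on the opposite strand). The Hspa5 stretch is chr2:34772020-34772048 on the plus strand, the Hsp90b1 stretch is chr10:86705518-86705671 on the minus strand, the Calr stretch is chr8:84847060-84847108 on the minus strand and the Creld2 stretch is chr15:88819505-88819553 on the plus strand, all in GRCm38.p6. The Hspa5 stretch is the shortest because it falls within the gene as GENCODE annotates it.
Hspa5: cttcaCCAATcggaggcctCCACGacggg
Hsp90b1: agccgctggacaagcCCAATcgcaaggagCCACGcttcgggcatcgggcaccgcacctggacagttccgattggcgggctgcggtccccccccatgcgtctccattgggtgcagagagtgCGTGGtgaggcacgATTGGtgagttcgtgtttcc
Calr: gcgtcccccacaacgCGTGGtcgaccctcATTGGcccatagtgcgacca
Creld2: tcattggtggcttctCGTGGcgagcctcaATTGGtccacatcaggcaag

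The Hsp90b1 promoter holds 2 elements, at -212 to -194 and, on the opposite strand, at -107 to -89 from the gene start. Those of Hspa5 (-65 to -47), Calr (-162 to -144) and Creld2 (-126 to -108) hold 1 each. The shorter form, ATTGG and CCACG with any 1 base between them, was in 12 promoters (0.0365%) and in no member's. The letters TGACGTGG (222 promoters, 0.676%) and TGATGNAA, a core of the ATF4 response site (1304 promoters, 3.97%), were in no member promoter either. Among 58 promoters of other pathway genes, the element was in 6 (Canx, Derl3, Dnajc3, Ero1b, Pdia6 and Syvn1), the shorter form in 2 (Dnajb11 and Herpud1) and TGATGNAA in 10. A match describes the letters of the window and not the binding of a factor.

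**Figure D2:**
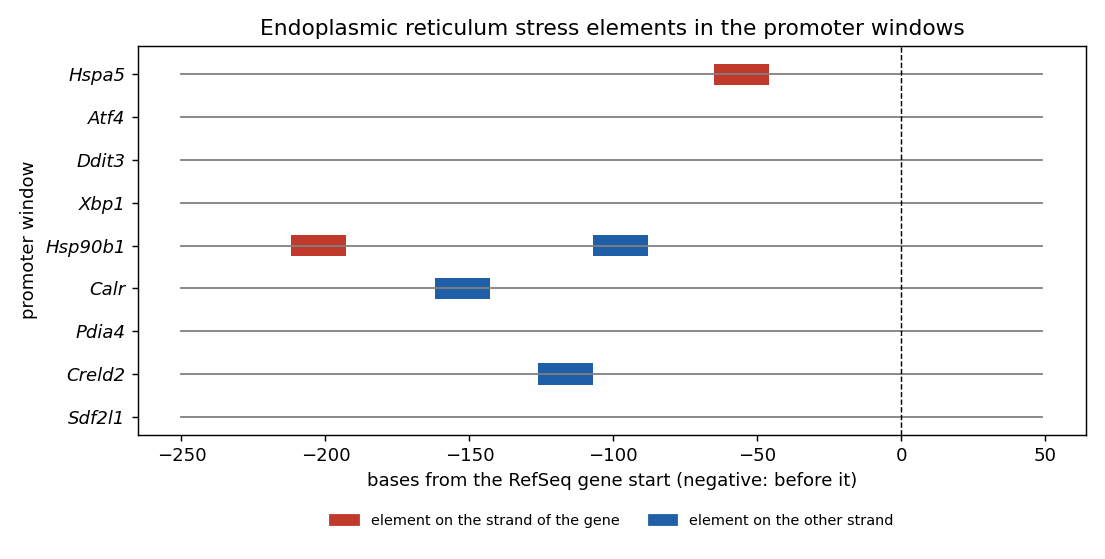
Position of the ER stress element in the promoter windows of the 9 members with a RefSeq entry, in bases from the gene start (dashed line). Hspa5, Calr and Creld2 have 1 element, Hsp90b1 has 2 and the other 5 windows have none.

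In BLA, isolated males were compared with group-housed males to ask what early isolation did to these genes. No member passed the test (0 of 10 at an adjusted p under 0.05 and 0 of 10 at an unadjusted p under 0.05). The test was the quasi-likelihood F test of edgeR over 22109 genes, adjusted by Benjamini-Hochberg, and each adjusted p was 1.0. The background was also empty, with 0.0% of genes called, 439 genes (1.99%) at an unadjusted p under 0.05, and 6 genes called by DESeq2. Fold changes of 9 of 10 members lay below 0, against 49.2% of all genes tested, and their median log2 fold change was -0.12, against 0.0028 for all genes. The CPM values that follow are scaled among the 6 libraries of the region and are not comparable between BLA and VTA.

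Among the transcription factors, Atf4 is the member with separate groups in BLA. It had 77.6, 80.0 and 75.0 CPM in isolated BLA libraries, against 90.1, 82.6 and 88.2 CPM in group-housed ones. Every isolated library was below every group-housed library, which held in this direction for 2.87% of all genes, and the log2 fold change was -0.17 (SE 0.09, unadjusted p = 0.0869 by edgeR). Ddit3 had 16.9, 16.1 and 18.8 CPM in isolated libraries, against 19.1, 18.3 and 18.1 CPM in group-housed ones. Its groups overlap because of isolated library 3 (log2 fold change -0.10, SE 0.11). Xbp1 had 70.7, 66.7 and 64.4 CPM in isolated libraries and 65.9, 64.5 and 73.9 CPM in group-housed ones, which is the smallest difference of the 10 (log2 fold change -0.02, SE 0.09).

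The chaperones show how much a single library weighs in BLA. Hspa5 had 239, 254 and 248 CPM in isolated libraries, against 231, 216 and 378 CPM in group-housed ones. Group-housed library 3 stands far above the other 5, and the log2 fold change of -0.15 (SE 0.19) rests on it. Hsp90b1 had 209, 238 and 234 CPM in isolated libraries, against 218, 256 and 256 CPM in group-housed ones. Calr had 281, 307 and 338 CPM in isolated libraries, against 297, 331 and 386 CPM in group-housed ones. For Hsp90b1 and Calr the groups overlap throughout, with log2 fold changes of -0.10 (SE 0.10) and -0.13 (SE 0.12).

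Pdia4 repeated the picture of Hspa5, with 49.5, 46.4 and 49.2 CPM in isolated libraries, against 48.8, 48.9 and 68.0 CPM in group-housed ones (log2 fold change -0.19, SE 0.13). Manf had 29.1, 27.1 and 27.0 CPM in isolated libraries, against 28.4, 32.3 and 36.4 CPM in group-housed ones. Its groups overlap because group-housed library 1 lies below isolated library 1, and it has the most negative log2 fold change of the 10, -0.22 (SE 0.11, unadjusted p = 0.0661 by edgeR). Creld2 was the exception in direction, with 12.9, 11.7 and 10.8 CPM in isolated libraries, against 10.5, 8.33 and 12.4 CPM in group-housed ones (log2 fold change 0.17, SE 0.15). Sdf2l1 had 7.48, 5.93 and 6.58 CPM in isolated libraries, against 6.38, 3.85 and 10.2 CPM in group-housed ones, a spread in the group-housed group that exceeds the difference (log2 fold change -0.06, SE 0.29).

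In group-housed BLA library 3, 9 of 10 members lay above their group's mean log2 level, by 0.23 on average, while 53.2% of all genes did so there. In group-housed BLA library 2, 1 of 10 did so, with a mean deviation of -0.17, against 47.1% of all genes, and without it the median log2 fold change was -0.18. Without library 3, 6 of 10 members lay below 0, the median log2 fold change was -0.02, and that of Hspa5 was 0.14 (SE 0.11). Atf4 had a log2 fold change of -0.16 (SE 0.11) in that fit. The other group-housed libraries are those rich in ribosomal RNA reads: with these and isolated library 3 left out, group-housed library 3 is alone in its group and the members' median is -0.29. Markers also had fold changes of mostly 1 sign in some lists, although their sums overlapped between the groups. All 10 cortical glutamatergic markers had fold changes below 0, with summed levels of 868 to 1792 CPM in isolated and 1306 to 1780 CPM in group-housed libraries, and all 10 striatal markers had fold changes above 0, with sums of 895 to 2281 CPM in isolated and 661 to 1618 CPM in group-housed libraries. Of 10 markers each, 9 oligodendrocyte and 8 microglial markers lay above 0, and 7 astrocyte and 6 endothelial markers lay below 0. No marker of these lists passed the test, and their part in the members' values was not tested.

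**Figure D3:**
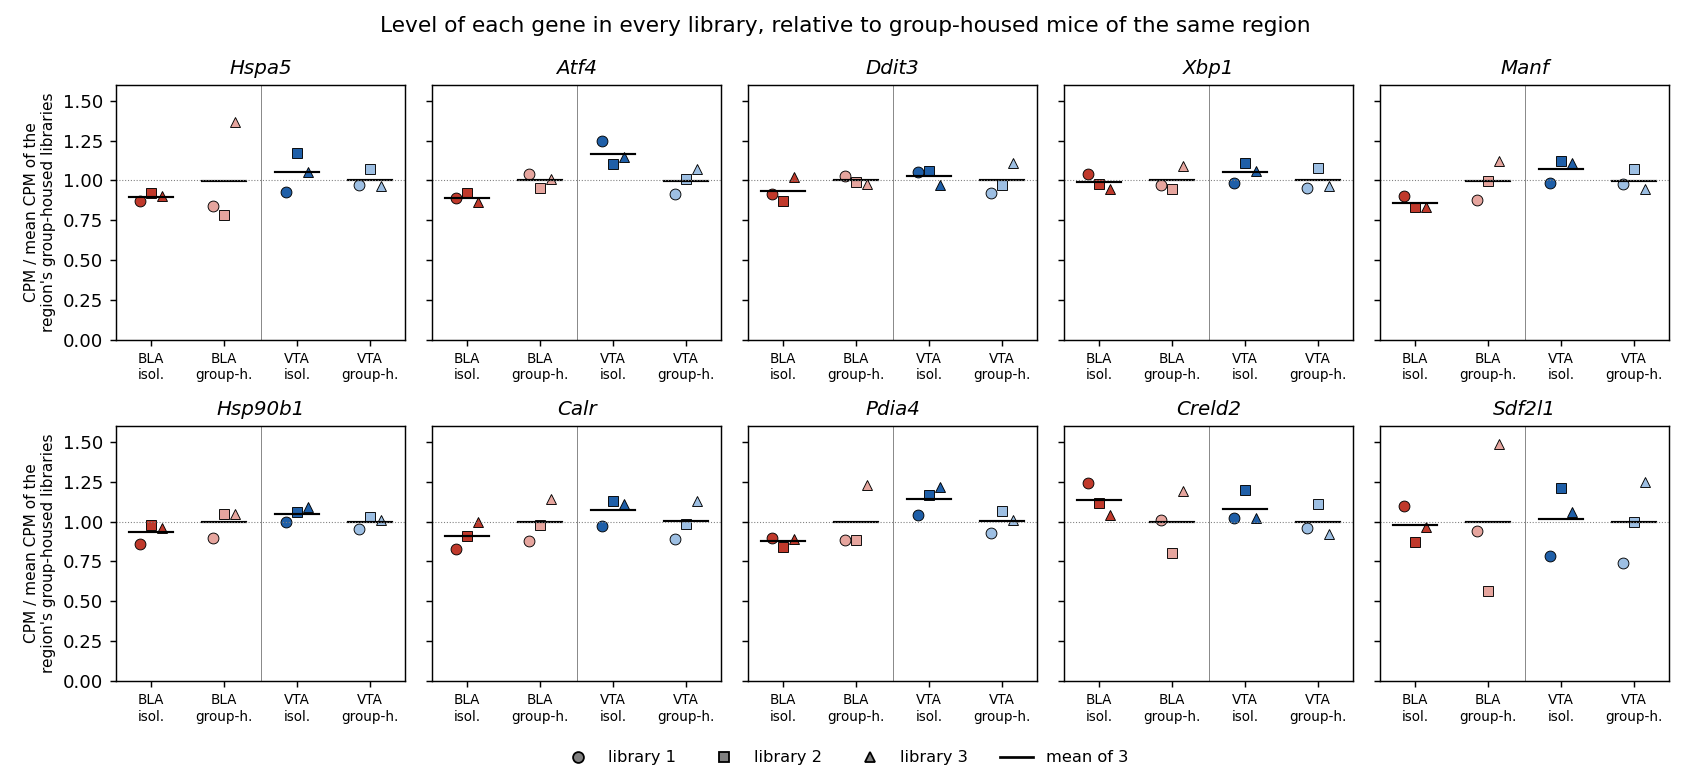
Each member's CPM in every library divided by the mean of the group-housed libraries of the same region, with 1 symbol per library and a bar at the mean of 3, for isolated and group-housed BLA and VTA. Hspa5, Pdia4 and Sdf2l1 show group-housed BLA library 3 (triangle) apart from the rest, and Atf4 is below 1 in all isolated BLA libraries (0.863 to 0.920) and above 1 in all isolated VTA libraries (1.10 to 1.25).

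In VTA, isolated females were compared with group-housed females. No member passed the test there either (0 of 10 by edgeR over 24081 genes, 1 of 10 at an unadjusted p under 0.05). Of all genes 0.00415% were called (1 gene) and 18.3% had an unadjusted p under 0.05, while DESeq2 called 485 genes, none of them a member. All 10 fold changes lay above 0, against 49.8% of all genes, with a median log2 fold change of 0.09, against -0.00132 for all genes. With upper-quartile factors, which moved the median of all genes to -0.07, 7 of 10 lay above 0 and the members' median was 0.02. Single libraries weigh here as well. Leaving out isolated VTA library 2 gave 8 of 10 above 0 and a median of 0.05, leaving out group-housed VTA library 1 gave 8 of 10 and 0.04, and leaving out isolated VTA library 1 gave 10 of 10 and 0.16. In group-housed VTA library 1, 0 of 10 members lay above their group's mean log2 level, against 48.3% of all genes, with a mean deviation of -0.12.

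Atf4 again separated the groups, now with isolated mice higher. It had 132, 116 and 121 CPM in isolated VTA libraries, against 96.5, 107 and 113 CPM in group-housed ones. The log2 fold change was 0.22 (SE 0.09, unadjusted p = 0.0312, adjusted p = 0.254 by edgeR), and it lay between 0.13 and 0.28 over 16 alternative fits with adjusted p from 0.114 to 0.986. Separate groups are common in VTA, where 12.7% of all genes had every isolated library above every group-housed one. Ddit3, its target, had 24.7, 24.9 and 22.95 CPM in isolated libraries, against 21.7, 22.9 and 26.1 CPM in group-housed ones, with overlapping groups (log2 fold change 0.04, SE 0.10, and -0.03 with upper-quartile factors). Xbp1 had 106, 121 and 115 CPM in isolated libraries, against 104, 117 and 105 CPM in group-housed ones (log2 fold change 0.07, SE 0.08).

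Among the folding proteins Pdia4 had the largest fold change. It had 84.5, 95.1 and 99.0 CPM in isolated VTA libraries, against 75.2, 86.4 and 81.7 CPM in group-housed ones, and only isolated library 1 falls within the range of the group-housed libraries (log2 fold change 0.20, SE 0.09, unadjusted p = 0.0528, adjusted p = 0.278 by edgeR). Hspa5 had 401, 505 and 453 CPM in isolated libraries, against 418, 459 and 417 CPM in group-housed ones, with isolated library 1 below all group-housed libraries (log2 fold change 0.07, SE 0.10). Hsp90b1 had 344, 367 and 376 CPM in isolated libraries, against 329, 358 and 350.0 CPM in group-housed ones (log2 fold change 0.07, SE 0.07). Calr had 383, 443 and 438 CPM in isolated libraries, against 350.3, 387 and 443 CPM in group-housed ones (log2 fold change 0.10, SE 0.10). The levels of these 3 chaperones thus overlap between the groups.

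The small ER proteins overlapped as well. Manf had 38.7, 43.9 and 43.9 CPM in isolated VTA libraries, against 38.5, 42.3 and 37.3 CPM in group-housed ones (log2 fold change 0.10, SE 0.09). Creld2 had 19.3, 22.7 and 19.4 CPM in isolated libraries, against 18.2, 21.2 and 17.6 CPM in group-housed ones (log2 fold change 0.11, SE 0.11). Sdf2l1 had 8.85, 13.7 and 11.95 CPM in isolated libraries, against 8.34, 11.3 and 14.1 CPM in group-housed ones (log2 fold change 0.03, SE 0.22).

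Markers of several cell types had fold changes above 0 in VTA. The sums of choroid plexus, oligodendrocyte and microglial markers still overlapped between the groups. For the choroid plexus, isolated library 2 lay within the group-housed range. All 12 choroid plexus markers had fold changes above 0, with sums of 31.8 to 3440 CPM in isolated libraries, against 28.7 to 37.8 CPM in group-housed ones, and none of the 12 was at 0 in every library of a group. All 10 cortical glutamatergic markers did so too (sums of 144 to 571 CPM in isolated and 114 to 128 CPM in group-housed libraries), as did all 10 oligodendrocyte markers (10140 to 13760 CPM in isolated and 6963 to 11420 CPM in group-housed libraries). The 10 microglial markers lay above 0 as well (sums of 254 to 407.5 CPM in isolated and 237 to 294 CPM in group-housed libraries). Of the 10 astrocyte markers 8 lay above 0, and their sums did not overlap (4177 to 4607 CPM in isolated and 3632 to 3907 CPM in group-housed libraries). Signs were also mixed in the striatal (8 of 10 above 0), dopamine neuron (6 of 10) and endothelial (6 of 10) lists. No gene of these lists passed the test, and their part in the members' values was not tested. Without isolated libraries 1 and 3, which carried most of the choroid plexus RNA, all 10 members still lay above 0. Their median was 0.16, and Atf4 was at 0.13 (SE 0.11). That fit holds 1 isolated library, which is assumed to vary like the group-housed ones.

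**Figure D4:**
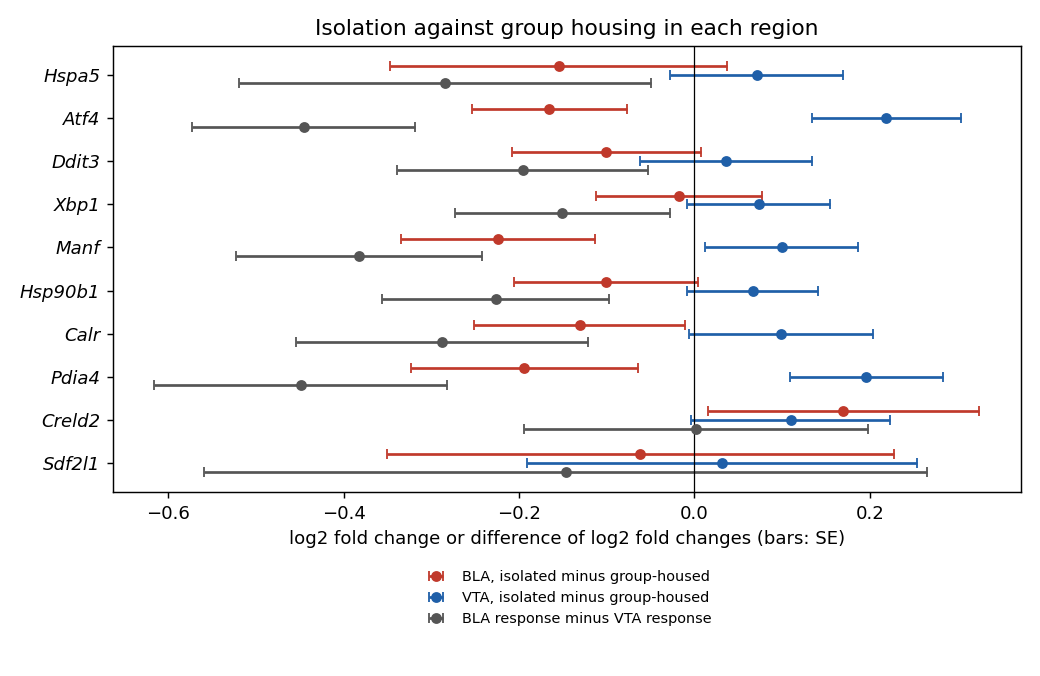
Log2 fold change of isolated relative to group-housed mice in BLA (red) and VTA (blue), and the BLA response minus the VTA response (grey), for the 10 members, with standard errors. In BLA 9 of 10 points lie below 0 and in VTA 10 of 10 lie above 0, and no point passed the test.

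The response in BLA was set against that in VTA in a single fit of the 12 libraries. No member passed the test (0 of 10 by edgeR over 25009 genes, 3 of 10 at an unadjusted p under 0.05). Of all genes 0.0% were called and 14.9% had an unadjusted p under 0.05, while DESeq2 called 138 genes, none of them a member. The difference, BLA response minus VTA response, lay below 0 for 9 of 10 members, against 55.3% of all genes, with a median of -0.26 on the log2 scale, against -0.06 for all genes. Upper-quartile factors moved the median of all genes to 0.08 and that of the members to -0.12.

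Atf4 had the smallest unadjusted p of the 10 for this difference, -0.45 (SE 0.13, unadjusted p = 0.00317, adjusted p = 0.303 by edgeR). Over 21 alternative fits it lay between -0.50 and -0.30, with adjusted p from 0.0587 to 0.910. On the scale shared by the 12 libraries Atf4 had 90.3, 93.5 and 87.6 CPM in isolated BLA libraries, 106, 96.1 and 103 CPM in group-housed BLA libraries, 117, 98.9 and 107 CPM in isolated VTA libraries and 80.6, 89.8 and 95.4 CPM in group-housed VTA libraries. All BLA libraries were thus below all VTA libraries among isolated mice and above all of them among group-housed mice. This crossing, looked for after the values of Atf4 were seen, was found in 1 of 10 members and in 0.288% of all genes (72 of 25009), and it was not tested. Pdia4 had a difference of -0.45 (SE 0.17, adjusted p = 0.304) and Manf one of -0.38 (SE 0.14, adjusted p = 0.303), by the same edgeR test. For the other members it lay between -0.29 (Calr) and 0.0017 (Creld2), with adjusted p of 0.404 to 0.999 by edgeR. Without group-housed BLA library 3 the difference was 0.02 for Hspa5 and the median was -0.18. With the 5 libraries that stand apart left out together, a choice made after seeing the data, the median was -0.44.

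Levels in BLA and VTA were compared over both housing conditions, on the 12-library scale. Creld2, Hspa5, Pdia4 and Xbp1 were lower in male BLA than in female VTA (4 of 10 members, edgeR over 25009 genes), and no member was higher. Differences between the regions are common, since 47.7% of all genes were called, 24.1% lower in BLA. Without the 5 libraries that stand apart none of the 10 passed the test, while 8763 genes did, against 11940 with all libraries.

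Xbp1 differed most evenly. It averaged 79.1 ± 4.43 CPM in BLA and 95.3 ± 6.90 CPM in VTA (SD, n = 6 libraries each), with a log2 fold change of -0.27 (SE 0.06, adjusted p = 0.00197 by edgeR). Every BLA library, at 75.0 to 86.4 CPM, lay below every VTA library, at 86.5 to 102.9 CPM, as for 14.1% of all genes. Creld2 averaged 12.97 ± 1.91 CPM in BLA and 16.9 ± 1.69 CPM in VTA, the largest difference of the 10, -0.38 (SE 0.10, adjusted p = 0.00517 by edgeR). Pdia4 averaged 60.5 ± 9.38 CPM in BLA and 74.6 ± 8.70 CPM in VTA (log2 fold change -0.30, SE 0.08, adjusted p = 0.0082 by edgeR). In both the ranges overlap, and for Pdia4 the overlap comes from group-housed BLA library 3, at 79.5 CPM.

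Hspa5 averaged 305 ± 68.96 CPM in BLA and 379 ± 32.98 CPM in VTA, with a log2 fold change of -0.31 (SE 0.12, adjusted p = 0.0411 by edgeR). Group-housed BLA library 3, at 442 CPM, was above every VTA library, and the other 5 BLA libraries, at 251 to 297 CPM, were below every one (349 to 431 CPM). Of 12 fits that left out 1 library, 10 gave Hspa5 an adjusted p above 0.05 (0.0588 to 0.0992). Sdf2l1, with a similar log2 fold change of -0.29, had an SE of 0.21 and did not pass the test (adjusted p = 0.271 by edgeR), and its value was -0.50, with an adjusted p of 0.0296, when group-housed BLA library 3 was left out.

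The remaining members gave no call between the regions. Hsp90b1 averaged 275 ± 22.01 CPM in BLA and 303 ± 18.6 CPM in VTA (log2 fold change -0.14, SE 0.06, adjusted p = 0.0853 by edgeR, and 0.016 with upper-quartile factors). Calr averaged 378 ± 43.7 CPM in BLA and 349 ± 36.3 CPM in VTA (0.12, SE 0.08), the only member besides Ddit3 (0.03) and Manf (0.01) with a log2 fold change above 0. Atf4 was at -0.02 (SE 0.06). The signs of Atf4, Ddit3 and Manf changed between alternatives. Cell markers differ between the regions as well. All 10 oligodendrocyte and all 10 endothelial markers were called lower in BLA (24.1% of all genes were). All 10 microglial markers had fold changes above 0, and 7 of them were called higher (23.7% of all genes were). Of the 10 astrocyte markers 2 were called higher and 6 lower. The part of cell composition in the members' levels was not tested.

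**Figure D5:**
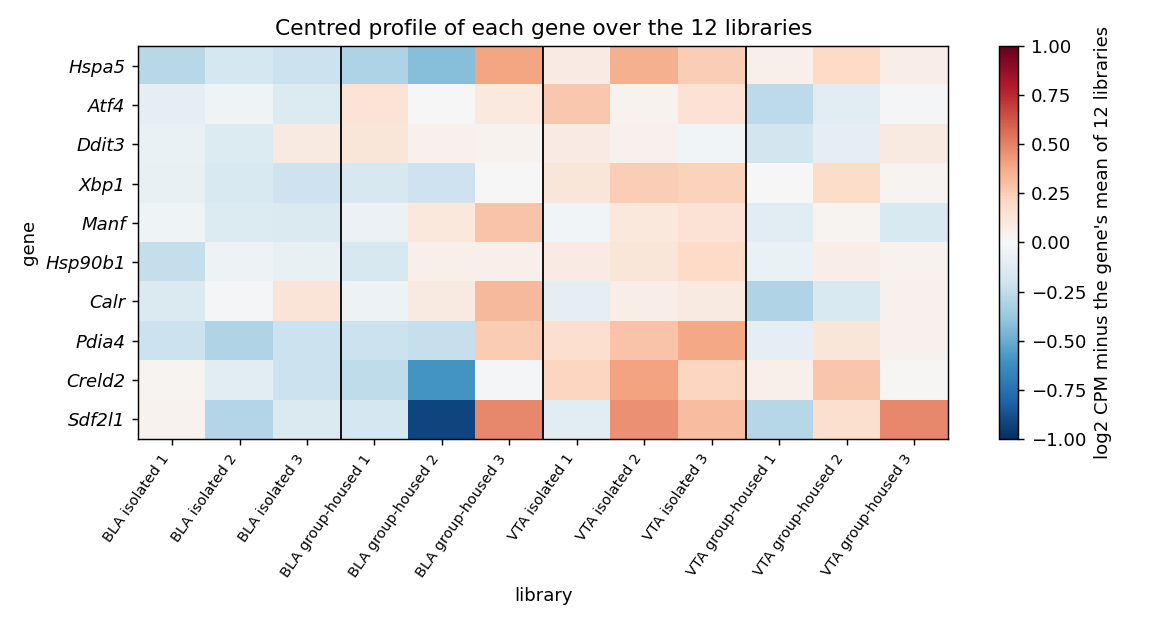
Log2 CPM of each member minus its own mean over the 12 libraries (12-library scale), with libraries in columns by group. Blue prevails in BLA for Hspa5, Xbp1, Pdia4 and Creld2. The exceptions are Hspa5 (0.394) and Pdia4 (0.253) in group-housed BLA library 3, and Creld2 in isolated BLA library 1 (0.0271). The deepest value is Sdf2l1 in group-housed BLA library 2, at -0.916.

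The members were also compared with each other. Over the 12 libraries, likeness was measured as the root mean square difference of 2 centred log2 profiles, a description with no test, in which all genes share the depth and composition of the libraries. The most alike pair was Hspa5 and Pdia4, at 0.109. Of 10377 genes outside the list with at least 10 CPM, 0 were nearer to Hspa5 and 2 were nearer to Pdia4. Both members stood high in group-housed BLA library 3, at 0.394 and 0.253. Xbp1 and Pdia4 came next at 0.111, with 324 genes (3.12%) nearer to Xbp1 and 2 nearer to Pdia4. Atf4 and Ddit3, the arm downstream of PERK, were at 0.113, with 566 genes (5.45%) nearer to Atf4 than Ddit3 was. Hspa5 and Ddit3 were at 0.288, with 3654 genes (35.2%) nearer to Hspa5. Counts of nearer genes are not comparable between members, since their distances to genes outside the list differ. Outside the list, Mlec (0.128), Dcaf12l1 (0.136) and Dpp7 (0.136) were nearest to Hspa5, where Mlec encodes malectin, a lectin of the ER. Oxa1l (0.0397), Ddx28 (0.0528) and Igsf8 (0.0562) were nearest to Atf4. Eif2ak3, which encodes the sensor PERK, was nearest to Ddit3 (0.0634), followed by Zfp532 (0.0658) and Dlst (0.0658).

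Fold changes were also read by the ER stress element, with no test of members with it against those without. In VTA the 4 members with it had a median log2 fold change of 0.08 and the 5 with a promoter entry but without it 0.07. In BLA the medians were -0.12 with it and -0.10 without it. Between the regions, 3 of the 4 with it and 4 of the 5 without it had log2 fold changes below 0. The edgeR test called 2 of each kind, all lower in BLA, and 24.1% of all genes were called lower.

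The other genes of the pathway were read in 4 lists. Among 10 sensors and membrane-bound factors, 5 had log2 fold changes below 0 in BLA and 7 above 0 in VTA. Among 20 other folding factors the counts were 15 below 0 in BLA and 17 above 0 in VTA, and among 18 genes of ER-associated degradation and translocation they were 12 and 15. Among 18 targets of ATF4, 8 lay below 0 in BLA and 12 above 0 in VTA. Of all genes tested, 49.2% lay below 0 in BLA and 49.8% above 0 in VTA. None of the 66 genes passed the test in either region. The median log2 fold changes of the 4 lists lay between -0.05 and 0.01 in BLA and between 0.08 and 0.12 in VTA. These counts and medians are for TMM factors only. Upper-quartile factors moved the median of all genes in VTA to -0.07, with 39.9% above 0.

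In VTA the smallest p of these lists belonged to Vldlr, a lipoprotein receptor, at 146 ± 4.40 CPM in isolated and 122 ± 1.81 CPM in group-housed libraries (n = 3 each, log2 fold change 0.26, SE 0.06, adjusted p = 0.236 by edgeR, and 0.0474 with DESeq2). Asns, asparagine synthetase and a textbook target of ATF4, averaged 134 ± 11.4 CPM in isolated and 111 ± 4.46 CPM in group-housed libraries (0.28, SE 0.08, adjusted p = 0.236 by edgeR). Its adjusted p was 0.0458 by edgeR without isolated library 2, a fit that called 1200 genes in VTA. DESeq2, with which Vldlr passed the test, called 485 genes there. The log2 fold change of Ddit4, which stress also induces, was 0.27 (SE 0.10), and that of Herpud1, a factor of ER-associated degradation, was 0.21 (SE 0.08). The sensor genes Ern1 and Atf6 did not pass the test (adjusted p = 0.236 and 0.256 by edgeR). Ern1 (IRE1) was at 15.4 ± 1.30 CPM in isolated and 19.6 ± 1.19 CPM in group-housed libraries (log2 fold change -0.35, SE 0.10) and Atf6 at 70.4 ± 10.4 CPM in isolated and 58.0 ± 3.54 CPM in group-housed ones (0.28, SE 0.11). For Ern1 every isolated library was below every group-housed library, as for 13.5% of all genes, and the Atf6 groups overlap. Creb3l1, at 1.04 ± 0.182 CPM in isolated and 0.586 ± 0.0768 CPM in group-housed libraries, had a log2 fold change of 0.83 (SE 0.29). Values were 0.17 (SE 0.08) for Sdf2, 0.23 (SE 0.10) for Fkbp2, 0.18 (SE 0.08) for Dnajb11 and 0.13 (SE 0.07) for Sec62.

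In BLA, Herpud1 had 38.8 ± 1.58 CPM in isolated and 42.7 ± 1.30 CPM in group-housed libraries, with groups apart in the direction opposite to VTA (log2 fold change -0.14, SE 0.09). The BLA response of Herpud1 minus its VTA response was -0.41 (SE 0.11, adjusted p = 0.303 by edgeR). Groups were also apart and lower in isolated BLA libraries for Atf6b (-0.16, SE 0.10), Selenos (-0.18, SE 0.11) and Os9 (-0.15, SE 0.09). With Herpud1, these are 1 of 10 sensors, 3 of 18 genes of degradation and translocation and no gene of the other lists. The share among all genes was 2.87%. In VTA, 12.7% of all genes had groups apart and higher, as Herpud1 did. Values were -0.17 (SE 0.11) for Slc3a2 and -0.28 (SE 0.23) for Chac1, while Ero1l had 0.16 (SE 0.11) and Phgdh 0.18 (SE 0.17). Creb3 (-0.12), Creb3l1 (-0.67), Ero1lb (-0.13) and Dnajc3 (-0.10) had fold changes within 1.5 SE of 0.

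Between the regions 29 of the 66 pathway genes were called (43.9%, against 47.7% of all genes), 11 higher in BLA (23.7% of all genes were) and 18 lower (24.1% of all genes were). Of the sensors 4 were higher and 2 lower in BLA, of the folding factors 2 were higher and 7 lower, of the degradation and translocation genes 4 were higher and 5 lower, and of the ATF4 targets 1 was higher and 4 lower. Atf6 was higher in BLA, at 105 ± 5.90 CPM in BLA and 55.1 ± 9.64 CPM in VTA (n = 6 each, log2 fold change 0.94, SE 0.08, adjusted p = 2.11e-07 by edgeR). Serpinh1, the collagen chaperone HSP47, was lower, at 15.2 ± 2.30 CPM in BLA and 26.7 ± 2.30 CPM in VTA (-0.81, SE 0.10, adjusted p = 6.14e-06 by edgeR). Herpud1 was lower, at 47.6 ± 2.95 CPM in BLA and 70.8 ± 8.26 CPM in VTA (-0.57, SE 0.06, adjusted p = 1.52e-06 by edgeR), and Vldlr was higher (0.35, SE 0.05). These 4 passed the test in all 20 alternative fits, the one without the 5 libraries included.

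The genes lie on 8 chromosomes of GRCm38 (mm10) in the GENCODE annotation. Hspa5 is at chr2:34771970-34777547 and Atf4 at chr15:80255184-80257541, both on the plus strand and free of overlap with other exons. Hsp90b1, at chr10:86690840-86705509 on the minus strand, shares 21.6% of its exon length with the exons of other genes, Ddit3 (chr10:127290774-127296288, plus strand) 9.1%, Manf (chr9:106887415-106891979, minus strand) 8.01% and Pdia4 (chr6:47796141-47813430, minus strand) 0.58%. No source used here gives the strand setting of the counting, so the counts of these 4 genes are less certain. Xbp1 (chr11:5520659-5525893, plus strand), Calr (chr8:84841850-84846934, minus strand), Creld2 (chr15:88819646-88826683, plus strand) and Sdf2l1 (chr16:17130138-17132383, minus strand) share none.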

How the data were processed

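The data are 12 RNA-seq libraries of brain punches (TRIzol RNA, 1 ug, stranded total RNA kit with ribosomal depletion, per the labels' protocols). The deposited values are raw gene counts made by the authors. Per the submitters' processing notes, the tools were HTSeq, TopHat2 and cutadapt with the build mm10, with no version given, and neither the strand setting nor the annotation is given there. The titles and treatment labels give the groups, regions and library numbers, and the design text gives the sexes. The series table was used, which differed from the tables of single libraries at 2 entries, none of them a member. All 12 within-group pairs of libraries differed by more than sampling noise (lowest chi-square 18.9 per degree of freedom).

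In R 4.3.3, edgeR 4.0.16 was used for filtering (filterByExpr with at least 10 reads, and 15 in total), TMM scaling and a robust, two-sided quasi-likelihood F test. Benjamini-Hochberg adjustment ran over every gene tested (threshold 0.05). Housing was tested on the 6 libraries of a region, and the difference and the regions on all 12. CPM are TMM-scaled over the same libraries, and log2 CPM for profiles used a prior count of 2. Length and exon overlap refer to a single principal transcript of each gene, as GENCODE marks it, and not to all its exons. Near-identical copies were searched with blastn 2.17.0 (95% identity over 100 bases): 1 was found, a microRNA gene within Hsp90b1. Alternatives were RLE and upper-quartile factors, DESeq2 1.42.0, limma 3.58.1 voom, other filters, removal of ribosomal loci, a replicate block, 1 fit for all libraries, and leaving out libraries.

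The members and lists were chosen with earlier results of these data known, so list counts and medians are descriptions. All 10 members are named; from each of the 4 pathway lists up to 3 genes by smallest p per region and 1 for the region contrast; likeness is given for 3 members. One gene that this rule selects is not reported here. Figures were drawn with matplotlib 3.10.9.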

Additional observations from a re-analysis of the deposited data

How the results depend on the processing

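No member was called in either housing comparison or in their difference under any alternative. The number of genes called in BLA (0) was 6 with DESeq2, 8 without a filter and 1 with 3 libraries left out (those with many ribosomal RNA reads). In VTA (1) it was 485 with DESeq2, 17 without a filter, and 0 with upper-quartile factors and without 2 isolated libraries. For the difference (0) it was 138 with DESeq2 and 1 without a filter. Leaving out each library gave 0 to 4 genes in BLA, 0 to 1200 in VTA and 0 to 487 for the difference, where both high counts come without isolated VTA library 2. The cause was not tested.

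Deviations of same-numbered libraries from their group means had r of 0.172, -0.0253 and 0.00283 in BLA and -0.0579, -0.0267 and -0.0199 in VTA. For libraries of different number r lay between -0.105 and 0.114 in BLA and between -0.0645 and 0.0983 in VTA. With 3 libraries per group, these values cannot decide whether the numbers pair libraries. With the replicate block, 0 genes were called in VTA and 1 for the difference, and Sdf2l1 in BLA was 0.0455.

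The members' median was -0.289 in BLA without the 3 libraries, and for the difference -0.116 with upper-quartile factors and -0.443 without 5 libraries (added after seeing the data). Without those 5, 0 members were called between regions. Signs turned as follows: Creld2 in BLA to -0.0211 without the 3 libraries; in VTA, with upper-quartile factors, Ddit3 to -0.033, Hsp90b1 to -0.00474 and Sdf2l1 to -0.0344; for the difference, Creld2 to -0.0544 with voom and -0.305 without the 5; between regions, with upper-quartile factors Ddit3 to -0.0311 and Manf to -0.0529, Manf to -0.0159 without a filter and -0.00231 without ribosomal loci, and without the 5 Atf4 to 0.0392 and Ddit3 to -0.0442.

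Leaving out each library gave these log2 ranges where a sign turned: in BLA, Hspa5 -0.308 to 0.145, Xbp1 -0.0621 to 0.045, Sdf2l1 -0.324 to 0.355, Dnajc3 -0.181 to 0.00694 and Phgdh -0.000392 to 0.306; in VTA, Hspa5 -0.0115 to 0.155, Ddit3 -0.0239 to 0.108 and Sdf2l1 -0.148 to 0.221; for the difference, Hspa5 -0.408 to 0.0205, Creld2 -0.101 to 0.157 and Sdf2l1 -0.382 to 0.272; between regions, Atf4 -0.054 to 0.00807, Ddit3 -0.0038 to 0.0687 and Manf -0.0408 to 0.0474. A library left alone in its group is assumed to vary like the other groups. The members had 74 or more reads in each library; whether depth or the number of libraries limits the calls was not tested.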
